A study of Mus musculus with 39 samples.

Results

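Pml, Sp100, Sp110, Sp140 and Daxx, 5 genes whose proteins build or occupy the PML nuclear body, were followed by symbol through a count table of 39676 genes, in which each had a single entry. The table came from bulk RNA sequencing of 39 subcutaneous tumours grown in BALB/c mice from AB1-HA, a mouse mesothelioma line made to express influenza haemagglutinin. The mice received PBS (10 tumours), tretinoin alone (all-trans retinoic acid, 5 mg/kg in 5 daily doses from day 4; 9 tumours), immune checkpoint therapy alone (ICT, 100 µg anti-CTLA-4 with 100 µg anti-PD-L1 on day 7; 10 tumours) or both (Tretinoin+ICT, 10 tumours), and the sequenced tumour was taken on day 9 while the other tumour on the same animal was left to show whether it regressed. By that response the Tretinoin+ICT tumours were labelled as coming from 6 responders and 4 non-responders. The labels did not say whether each tumour came from a separate mouse, so p-values measure the spread between tumours. The tretinoin dose and days are those of the labels, and the study's own text gives more than 1 dose and number of doses. Replicate numbers follow the order of the samples and only name a tumour.

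PML is the scaffold of a nuclear body that gathers proteins carrying or binding the small modifier SUMO. Retinoic acid is best known in this setting for degrading the PML-RARA fusion of acute promyelocytic leukaemia. SP100 is a constitutive partner of PML in the body, SP110 and SP140 are relatives of SP100 with chromatin-binding domains that are most abundant in leukocytes, and DAXX is recruited to the body by SUMO and deposits histone H3.3 together with ATRX. PML and the SP100 family are classical interferon-induced genes, with interferon-response elements described in the promoters of the human PML and SP100 genes.

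Sp110, Sp140 and Sp100 lie side by side on mouse chromosome 1 (GRCm38, GENCODE M21). Sp110 (ENSMUSG00000070034.13, chr1:85576899-85598817, minus strand) and Sp140 (ENSMUSG00000070031.11, chr1:85600378-85645037, plus strand) are transcribed away from each other from starts 1561 bp apart, and Sp100 (ENSMUSG00000026222.16, chr1:85649988-85709998, plus strand) begins 4951 bp after the end of Sp140, so that the 3 genes span 133100 bp. Pml (ENSMUSG00000036986.16, chr9:58218076-58249786, minus strand) and Daxx (ENSMUSG00000002307.15 in the count table and ENSMUSG00000002307.16 in M21, chr17:33909414-33915590, plus strand) lie on chromosomes 9 and 17. All 5 genes were matched to RefSeq promoters (GRCm38.p6), windows of 250 bases before the RefSeq start site and 50 after it. The RefSeq start lies 0 to 31 bp from the M21 start for 4 genes, but 325 bp into the M21 gene for Sp140, whose window therefore lies wholly downstream of its M21 start. The Sp100 and Sp110 windows are shown because they share a stretch of 18 bases, in capitals, the longest with at most 1 difference, and the Sp140 window because its gene starts beside Sp110 and was, of the members, most like it across tumours. All are written 5′ to 3′ on the strand of the gene.
Sp100 (chr1:85649738-85650037, plus strand): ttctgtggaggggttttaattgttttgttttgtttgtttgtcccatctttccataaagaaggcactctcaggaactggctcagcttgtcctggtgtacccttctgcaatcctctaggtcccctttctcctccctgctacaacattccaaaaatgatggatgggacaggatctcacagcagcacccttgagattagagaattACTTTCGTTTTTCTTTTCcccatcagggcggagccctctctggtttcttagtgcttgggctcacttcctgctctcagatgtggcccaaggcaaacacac
Sp110 (chr1:85598761-85599060, minus strand): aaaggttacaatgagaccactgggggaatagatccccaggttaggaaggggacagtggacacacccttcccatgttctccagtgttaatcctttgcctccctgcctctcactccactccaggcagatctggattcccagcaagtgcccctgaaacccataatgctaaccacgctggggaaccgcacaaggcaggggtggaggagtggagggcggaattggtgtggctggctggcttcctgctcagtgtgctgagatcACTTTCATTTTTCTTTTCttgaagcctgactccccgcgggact
Sp140 (chr1:85600453-85600752, plus strand): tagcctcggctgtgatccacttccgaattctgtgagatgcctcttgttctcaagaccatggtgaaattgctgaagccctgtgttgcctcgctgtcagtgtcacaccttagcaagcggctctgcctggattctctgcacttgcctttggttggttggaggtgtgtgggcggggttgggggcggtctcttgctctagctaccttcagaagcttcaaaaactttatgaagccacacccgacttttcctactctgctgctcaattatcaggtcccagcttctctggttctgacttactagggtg

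The shared stretch began 49 bases before the Sp100 start and ran to 32 bases before it, and in Sp110 it ran from base 8 to base 25 after the start. The copies differed by G7A, with the Sp100 base first and positions counted from 1 at the 5′ end of the stretch. It was noticed on reading the windows. Searched on both strands with any base at position 7, it was found in 4 of 32851 promoter windows (0.0122%), which belonged to Sp100, Sp110 and the predicted gene Gm7609. The stretch was taken from the Sp100 and Sp110 windows, so their hits were fixed in advance. The length that other pairs of windows share was not measured. On its opposite strand the stretch holds 2 overlapping copies of AANNGAAA, the core recognised by interferon regulatory factors, in both genes. That core, also searched after the windows had been read, was present once in Pml, at 74 to 67 bases before the start, and in 23.9% of all windows. The longer interferon-stimulated response element core of 2 GAAA repeats spaced by 2 bases (3.44% of windows) and the retinoic acid response element of 2 AGGTCA repeats spaced by 5 bases (0.00913%) matched none of the 5 windows in these letters. The bases before the M21 start of Sp140 were not searched.

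Sequencing gave 14033046 to 37951183 counts per tumour (median 18548168), and each of the 5 genes had between 795 and 8580 counts in every tumour and passed the low-count filter in every comparison. Levels are given in CPM, counts scaled to a common library size by TMM. Cyp26b1, a retinoic acid hydroxylase that retinoic acid induces, was at 5.48 to 11.7 CPM in PBS tumours, 240.2 to 384 CPM with tretinoin, 6.46 to 32.8 CPM with ICT and 53.2 to 170.0 CPM with Tretinoin+ICT, so the tretinoin labels and the transcript went together. Of 6 measured mesothelial markers, Upk3b, Lrrn4, Calb2 and Krt19 were under 1 CPM in every tumour, Wt1 was at 0.253 to 5.46 CPM and Pdpn at 57.8 to 95.3 CPM. Ptprc (CD45, carried by leukocytes) was at 160.3 to 768.8 CPM. In these whole tumours, fewer cells of a type and less RNA per cell cannot be told apart. The first digit of each sample title split every group into 2 series, which the labels did not explain. No digit was shared between groups, so series and treatment cannot be told apart.

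Per kilobase of annotated exon, Pml was the highest of the 5 genes in PBS tumours and Sp140 the highest by mean after each treatment. In PBS tumours the means ran from 23.0 ± 1.70 CPM per kb for Pml through 21.7 ± 5.41 for Sp140, 18.9 ± 3.09 for Sp100 and 16.5 ± 1.25 for Daxx to 11.5 ± 2.63 for Sp110 (SD, n = 10). Pml and Sp140 differed by less than the SD of Sp140, and Sp140 and Sp100 likewise, whereas Sp110 lay below the other 4 means. In Tretinoin+ICT tumours the order was Sp140 at 47.6 ± 14.2 CPM per kb, Sp100 at 30.2 ± 4.05, Pml at 30.0 ± 2.55, Daxx at 24.6 ± 3.87 and Sp110 at 23.3 ± 4.32 (SD, n = 10). There the means of Sp100 and Pml, and those of Daxx and Sp110, differed by less than their SDs. With tretinoin alone Sp140 led Pml by mean, 31.7 ± 10.4 against 28.9 ± 3.40 CPM per kb (SD, n = 9), but not by median, 25.2 against 26.8. No test was run on this order, which rests on annotated exon lengths of 3328 bp for Sp140 and 7556 bp for Sp100.

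Pml, the scaffold, was higher after tretinoin and after Tretinoin+ICT than after PBS, with changes that were small beside those of the SP100 family after Tretinoin+ICT. Its lowest, median and highest levels were 116, 127 and 149 CPM in PBS tumours and 144, 149 and 190.6 CPM in tretinoin tumours. All 9 tretinoin tumours lay above the PBS median, 4 of them above the highest PBS tumour, and 9 of 10 PBS tumours lay below the lowest tretinoin tumour. The log2 fold change was 0.33 (SE 0.0625, edgeR adjusted p = 0.000997). After ICT alone Pml spread from 120.0 to 159.9 CPM around a median of 147, with 5 of 10 tumours above the PBS range, and a log2 difference of 0.15 (SE 0.0599, edgeR adjusted p = 0.0798) did not pass the threshold of 0.05. It passed without PBS replicate 4 or any of ICT replicates 4, 5 and 10 (adjusted p = 0.0311 to 0.0481). With Tretinoin+ICT the levels were 131, 169 and 187 CPM, above the highest PBS tumour in 9 of 10. The exception was Tretinoin+ICT replicate 9, a non-responder. Against PBS the log2 fold change was 0.39 (SE 0.0540, edgeR adjusted p = 9.16e-06). The same 9 tumours also exceeded the highest ICT tumour, yet the log2 difference from ICT, 0.23 (SE 0.0657), had an edgeR adjusted p of 0.0766. Without Tretinoin+ICT replicate 9 the adjusted p was 0.0175, and without ICT replicate 3 it was 0.0403.

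**Figure D1:**
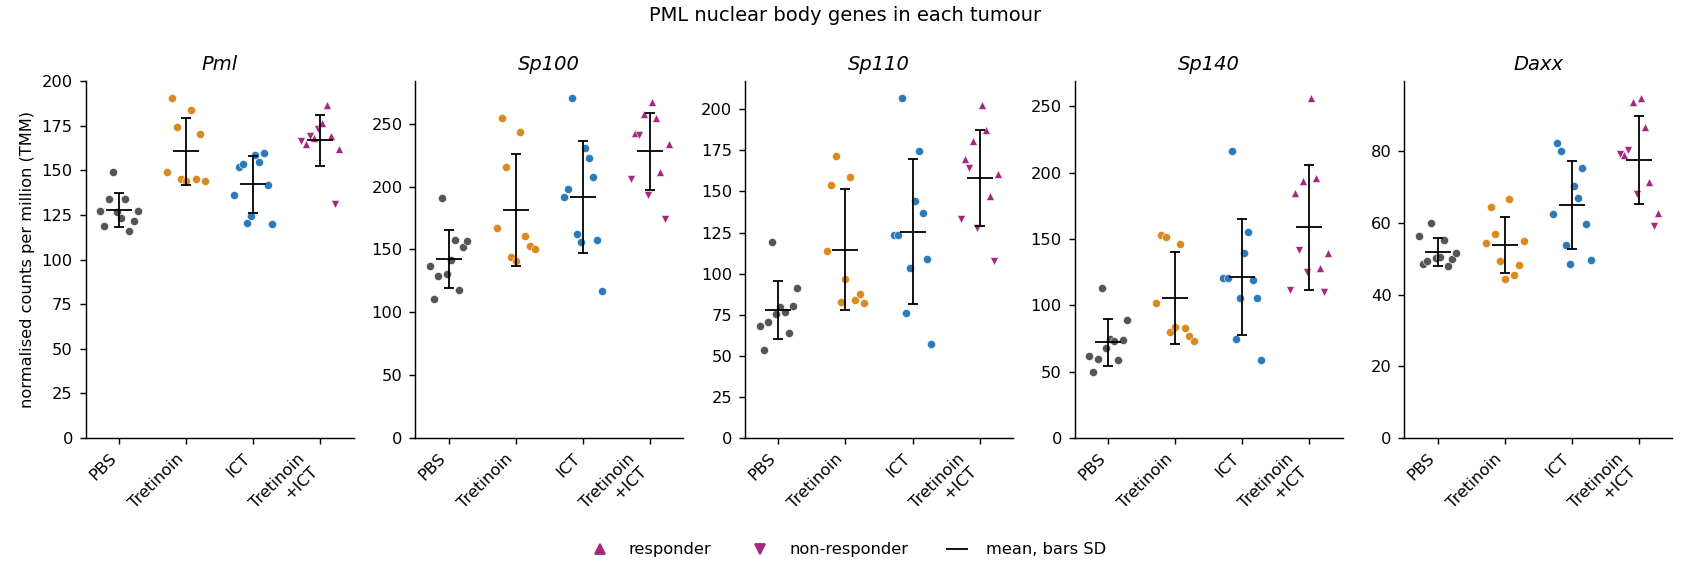
Normalised level of each gene in every tumour, in CPM, by treatment group, with each group's mean and SD in black and responders and non-responders as upward and downward triangles among the Tretinoin+ICT tumours. The Tretinoin+ICT mean is the highest of the 4 groups for all 5 genes, from 77.6 CPM for Daxx to 228 CPM for Sp100, and the groups overlap throughout.

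Sp100, the constitutive partner of PML, was higher after ICT and after Tretinoin+ICT than after PBS. It was at 110.4, 139 and 191 CPM (lowest, median, highest) in PBS tumours and at 117, 195 and 270.4 CPM in ICT tumours, of which 6 of 10 exceeded the PBS range. The ICT group was the widest from lowest to highest, with replicate 10 inside the lower part of the PBS range and replicate 3 the highest of all 39 tumours. By SD it was level with the tretinoin group (44.45 against 44.49 CPM). The log2 fold change for ICT was 0.42 (SE 0.124, edgeR adjusted p = 0.021). In tretinoin tumours Sp100 was at 141, 161 and 255 CPM, with 3 of 9 above the PBS range. Its log2 difference of 0.35 was close to that of Pml, but with a larger SE (0.125) it had an edgeR adjusted p of 0.0555. It passed without PBS replicate 4 or any of Tretinoin replicates 4, 5 and 9 (adjusted p = 0.0232 to 0.0431). In Tretinoin+ICT tumours it was at 174, 237 and 268 CPM, and 9 of 10 exceeded every PBS tumour. That gave a log2 fold change of 0.68 (SE 0.0925, edgeR adjusted p = 6.71e-06).

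Sp110 and Sp140, the chromatin readers transcribed from neighbouring starts, had the largest changes of the 5 genes against PBS. They were the only members to reach a 2-fold rise, and only with Tretinoin+ICT. Sp110 was at 53.7, 75.9 and 119.5 CPM in PBS tumours (lowest, median, highest), and Sp140 at 49.9, 70.4 and 113 CPM. PBS replicate 4 was the highest PBS tumour for both. Tretinoin brought Sp110 to 81.9, 96.8 and 171 CPM and Sp140 to 73.3, 84.0 and 153 CPM. Within this group replicates 2, 3 and 6 stood above the PBS range and the other 6 tumours inside it. The log2 fold changes were 0.56 (SE 0.169, edgeR adjusted p = 0.0268) for Sp110 and 0.55 (SE 0.176, edgeR adjusted p = 0.0329) for Sp140. Leaving out any of those 3 tumours lost both calls, with adjusted p up to 0.061 for Sp110 and 0.0753 for Sp140, and Sp140 was also lost without any of PBS replicates 1, 2, 3, 5 and 8. ICT alone gave a wide spread, 57.1 to 207 CPM for Sp110 and 58.5 to 216 CPM for Sp140. In 6 of 10 ICT tumours each gene exceeded the PBS range. Their log2 fold changes were 0.68 (SE 0.186, edgeR adjusted p = 0.0151) and 0.75 (SE 0.188, edgeR adjusted p = 0.0101). In Tretinoin+ICT tumours Sp110 was at 108, 162 and 203 CPM and Sp140 at 110.2, 141 and 256 CPM. The lowest Tretinoin+ICT tumour stood above 3 of 10 ICT tumours for Sp110 and above 4 of 10 for Sp140. Against PBS the log2 fold changes were 1.03 (SE 0.127, edgeR adjusted p = 3.14e-06) and 1.14 (SE 0.164, edgeR adjusted p = 1.64e-05).

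Daxx, the H3.3 chaperone, was higher wherever ICT was given and did not differ detectably after tretinoin alone. PBS tumours were at 47.9, 50.4 and 60.1 CPM (lowest, median, highest) and tretinoin tumours at 44.5, 54.4 and 66.7 CPM, with 2 of 9 above and 2 of 9 below the PBS range. The tretinoin log2 difference was 0.05 (SE 0.0724, 95% interval -0.10 to 0.20, edgeR adjusted p = 0.659). ICT tumours were at 48.6, 64.8 and 82.4 CPM, with a log2 fold change of 0.32 (SE 0.0883, edgeR adjusted p = 0.0163). Tretinoin+ICT tumours were at 59.3, 79.1 and 94.9 CPM, of which 9 of 10 exceeded the PBS range and 8 of 10 the tretinoin range. The log2 fold change was 0.58 (SE 0.0784, edgeR adjusted p = 6.54e-06) against PBS and 0.53 (SE 0.0978, edgeR adjusted p = 0.00169) against tretinoin. The latter placed Daxx at rank 208 of 14393 genes by p-value, ahead of the other 4 members.

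**Figure D2:**
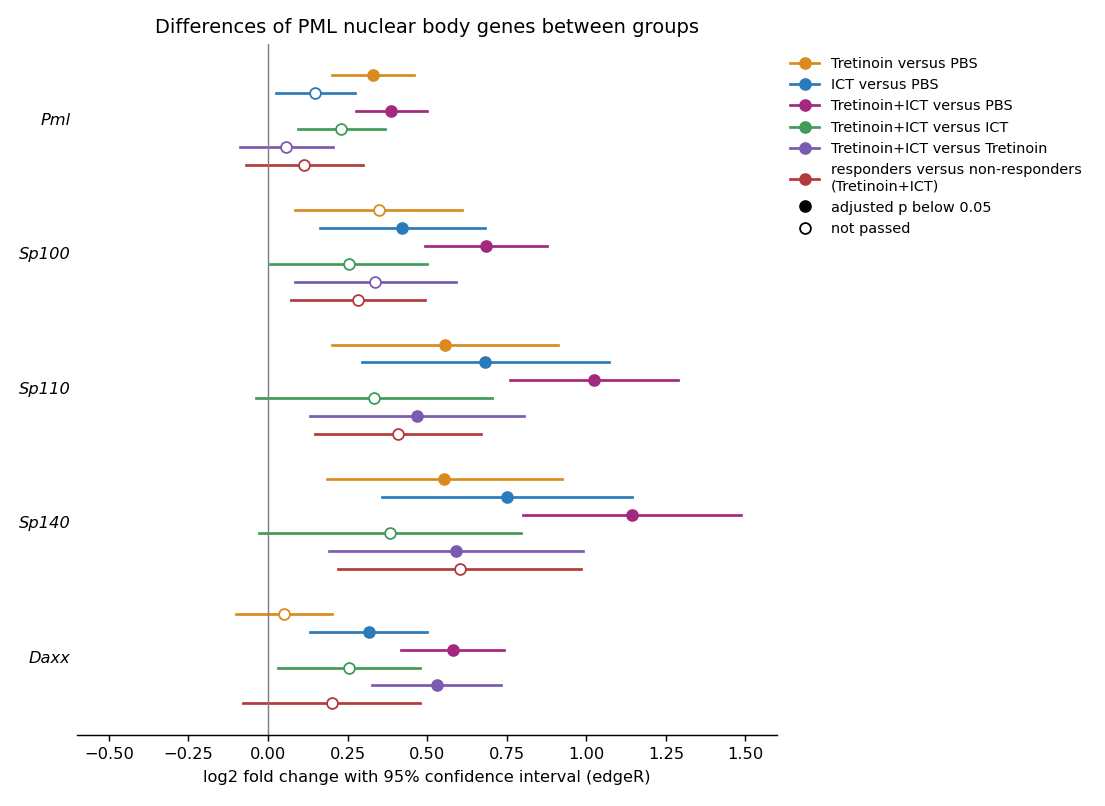
Log2 fold change of each gene (x axis) with its 95% interval in 6 comparisons, filled where the edgeR adjusted p was below 0.05 and open where it was not. The 5 symbols for Tretinoin+ICT against PBS are filled and lie between 0.39 and 1.14, and those for Tretinoin+ICT against ICT alone and for responders against non-responders are all open.

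Counted over the members, tretinoin against PBS passed for 3 of 5 genes (Pml, Sp110, Sp140), where 20.4% of 14340 genes tested passed in either direction and 11.5% were higher. ICT against PBS passed for 4 of 5 (all but Pml), beside 21.2% of 14155 genes in either direction and 14.1% higher. Tretinoin+ICT against PBS passed for 5 of 5, beside 50.3% of 14265 genes in either direction and 25.7% higher, and 2 of 5 also had a log2 fold change of at least 1, beside 5.45% of genes. These 3 comparisons share the PBS tumours. Against tretinoin alone, Tretinoin+ICT passed for Sp110 (log2 fold change 0.47, SE 0.162, edgeR adjusted p = 0.0449), Sp140 (0.59, SE 0.191, edgeR adjusted p = 0.035) and Daxx, 3 of 5 beside 21.4% of genes. Both the Sp110 and the Sp140 call were lost without any of Tretinoin replicates 1, 4, 5, 7, 8 and 9 or Tretinoin+ICT replicates 2, 4, 6 and 7, and the Sp110 call also without Tretinoin+ICT replicate 3 or 10 (adjusted p up to 0.0877 for Sp110 and 0.071 for Sp140). Sp100, with a log2 difference of 0.34 (edgeR adjusted p = 0.0523), passed without any of Tretinoin replicates 2, 3 and 6 or Tretinoin+ICT replicates 1, 5 and 9. Against ICT alone 0 of 5 passed, beside 1.99% of 14202 genes (283 by edgeR, 587 by DESeq2, 2571 at an unadjusted p below 0.05). All 5 differences from ICT were positive, from 0.23 for Pml to 0.38 for Sp140. DESeq2 passed Pml there (adjusted p = 0.0386). Tretinoin and ICT compared directly gave 0 of 5 by edgeR and by DESeq2, beside 9.54% of 14314 genes, with 3468 genes at an unadjusted p below 0.05.

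Within title series, each of the 4 pairings of a treated with a PBS series was fitted on its own. For Tretinoin+ICT all 5 members passed in all 4 pairings, with log2 fold changes of 0.34 to 0.44 for Pml, 0.65 to 0.72 for Sp100, 0.99 to 1.06 for Sp110, 1.04 to 1.25 for Sp140 and 0.51 to 0.65 for Daxx. For tretinoin, Pml passed in 2 of 4 pairings (0.28 to 0.37), while Sp110 (0.40 to 0.66, edgeR adjusted p = 0.057 to 0.457) and Sp140 (0.37 to 0.69, 0.0734 to 0.451) passed in 0 of 4. For ICT, Daxx passed in 1 of 4 (0.29 to 0.35), and Sp100 (0.37 to 0.48), Sp110 (0.67 to 0.70) and Sp140 (0.65 to 0.85) in 0 of 4, with values close to those over all tumours. These fits hold 4 or 5 tumours a side.

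The Pml and Daxx values of the single treatments were set side by side. Directly compared, tretinoin minus ICT was 0.18 for Pml (95% interval 0.03 to 0.33, edgeR adjusted p = 0.116) and -0.26 for Daxx (95% interval -0.48 to -0.04, edgeR adjusted p = 0.122), neither of which passed. The ratio of Pml to Daxx counts, chosen after the values had been seen and given without a test, had a median of 2.45 in PBS tumours (range 2.26 to 2.71), 2.96 with tretinoin (2.63 to 3.53), 2.25 with ICT (1.84 to 2.57) and 2.13 with Tretinoin+ICT (1.79 to 2.58). Every tretinoin tumour had a higher ratio than every ICT and every Tretinoin+ICT tumour. How many ratios of other genes would separate these groups was not counted. The ratio of Sp140 to Sp110 counts was steadier, between 0.836 and 1.26 over all 39 tumours. It widened most in the Tretinoin+ICT group, where its SD was 0.135 against 0.0373 in PBS tumours.

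**Figure D3:**
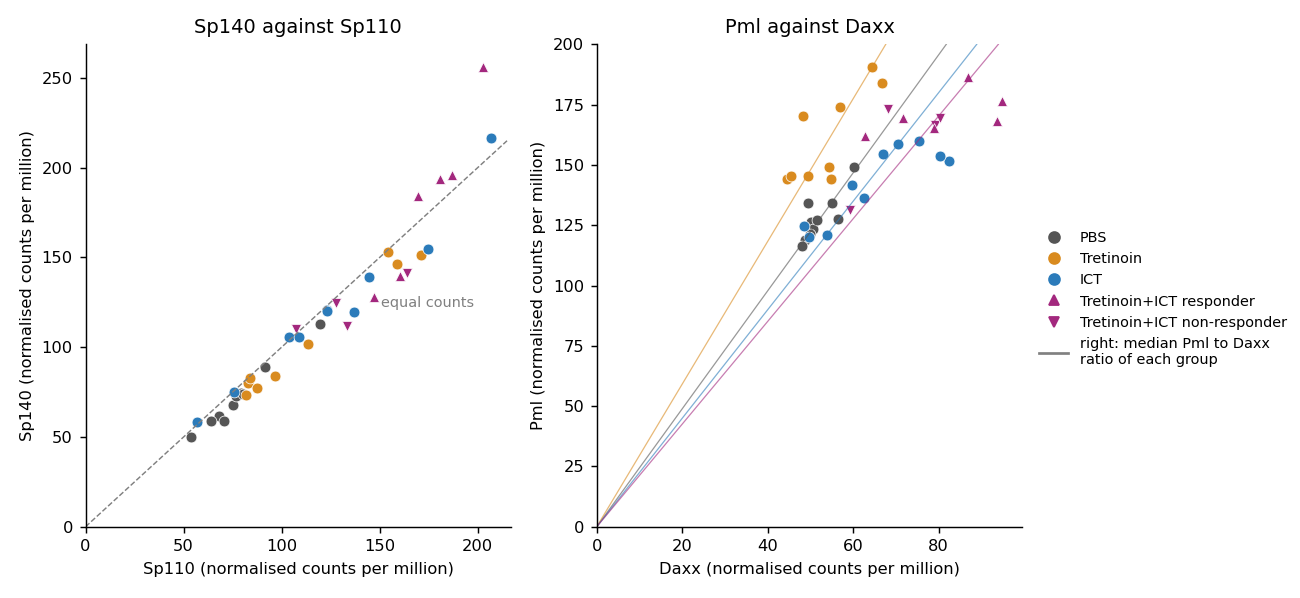
Normalised level of Sp140 against Sp110 (left, with a dashed line at equal counts) and of Pml against Daxx (right, with a line at each group's median ratio), in CPM, with 1 point per tumour. Sp140 and Sp110 follow the dashed line, and on the right every tretinoin point lies above the ICT and Tretinoin+ICT points in its ratio (2.63 to 3.53 against at most 2.58). The ratio was chosen after the values had been seen and was not tested.

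The interaction term asked whether the effect of tretinoin differed with and without ICT. None of the 5 members passed, beside 0.307% of 14977 genes (46 by edgeR, 84 by DESeq2, 1415 at an unadjusted p below 0.05). The differences of effects on the log2 scale were -0.10 for Pml (95% interval -0.28 to 0.08), -0.09 for Sp100 (-0.45 to 0.26), -0.22 for Sp110 (-0.73 to 0.29), -0.17 for Sp140 (-0.72 to 0.39) and 0.20 for Daxx (-0.07 to 0.47).

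Among the Tretinoin+ICT tumours, all 5 members were higher in responders by median, Pml barely so, and no member passed the test. Sp140 was at 112, 141, 125 and 110.2 CPM in non-responder replicates 1, 3, 5 and 9 and at 128, 189 and 256 CPM (lowest, median, highest) in the 6 responders. All 6 responders exceeded the non-responder median and 4 exceeded the highest non-responder, so the groups overlapped. The log2 difference was 0.60 (SE 0.174, 95% interval 0.22 to 0.98, edgeR adjusted p = 0.0955). Sp110 was at 134, 164.0, 128 and 108 CPM in the 4 non-responders and at 147, 175 and 203 CPM in responders, a log2 difference of 0.41 (SE 0.119, edgeR adjusted p = 0.0955). Sp100 was at 206, 241, 193 and 174 CPM against 212, 248 and 268 CPM, a log2 difference of 0.28 (SE 0.0967, edgeR adjusted p = 0.121). Both genes again had 4 of 6 responders above the highest non-responder. Pml and Daxx overlapped more, with 2 and 3 of 6 responders above the highest non-responder. By median they were at 168.9 and 82.9 CPM in responders and at 168.1 and 73.7 CPM in non-responders. Their log2 differences were 0.11 (95% interval -0.07 to 0.30, edgeR adjusted p = 0.44) and 0.20 (95% interval -0.08 to 0.48, edgeR adjusted p = 0.373). The background was 0% of 14604 genes by edgeR, with a smallest adjusted p of 0.0684 and 3302 genes at an unadjusted p below 0.05. DESeq2 called 1401 genes, among them Sp110 (adjusted p = 0.0297) and Sp140 (adjusted p = 0.0178). On simulated counts for this comparison, with 200 genes changed by 0.5 on the log2 scale, DESeq2 made 19 false calls beside 86 recovered genes. There edgeR made 1 false call beside 50 recovered genes. Sp110 and Sp140 also passed in edgeR without Tretinoin+ICT replicate 8, a responder (adjusted p = 0.0342 and 0.021). One title series held 2 responders and 3 non-responders and the other 4 and 1. With the series as a block, the log2 differences were 0.48 for Sp110 (edgeR adjusted p = 0.123) and 0.65 for Sp140 (edgeR adjusted p = 0.129).

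The 5 genes also varied together among tumours given the same treatment. Correlations were computed on log2 CPM after the mean of each treatment group had been removed (n = 39), over 20 pairs in all, of which those of the members with each other and with Ptprc are given, and the 2 values of a pair share a library and its depth. Sp110 and Sp140 were closest, with Pearson's r of 0.964 and Spearman's rho of 0.970 (adjusted permutation p = 1.11e-05 for each, from the smallest p that 100000 permutations can give). The r was 0.952 without the 2 tumours farthest from the median and lay between 0.908 and 0.988 within the 4 treatment groups. Sp100 followed Sp110 with r of 0.938 and rho of 0.940, and 0.991 within Tretinoin+ICT. Pml was less tightly tied to the family, with r of 0.811 and rho of 0.787 for Sp100 and 0.729 and 0.691 for Sp140. For Daxx the highest r among the members was 0.807, with Sp100 (rho 0.830), and r with Pml was 0.784 (rho 0.762). All 20 relations passed for r and rho, with adjusted permutation p up to 0.00011 and 0.00019, and r without the 2 farthest tumours ranged from 0.561 to 0.952. How many pairs of other genes would pass was not counted, so the number passing does not set these genes apart.

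Ptprc, the leukocyte transcript, varied closely with Sp110 and Sp140. It gave r of 0.923 with Sp110 (rho 0.883), 0.922 with Sp140 (rho 0.894) and 0.855 with Sp100 (rho 0.818), against 0.663 with Pml (rho 0.592) and 0.645 with Daxx (rho 0.633). Sp110 and Sp140 were thus near the leukocyte transcript tumour by tumour, and Pml and Daxx farther from it, although the differences between these correlations were not tested. The share of log2 CPM variance that lay between treatments was 55.3% for Pml and 55.6% for Daxx, and 45.7% to 49.7% for the SP100 family. From lowest to highest of the 39 tumours, Pml spanned 1.64-fold, Daxx 2.13-fold, Sp100 2.45-fold, Sp110 3.85-fold and Sp140 5.12-fold.

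Among 14977 genes, those whose log2 CPM over the 39 tumours was most like that of Sp100 were Parp14 (r = 0.973), Parp9 (0.971) and Oasl2 (0.969), the first and second being ADP-ribosyltransferase family members and the third an oligoadenylate synthetase-like gene. Sp110 itself ranked 6 in that order. For Sp110 they were Gbp8 (r = 0.989), Gbp4 (0.987) and Slamf8 (0.986), which encode guanylate-binding proteins and a SLAM-family receptor of myeloid cells, with Sp140 at rank 14. For Sp140 they were Samhd1 (r = 0.983), a dNTP hydrolase, Gm4951 (0.982) and Gbp8 (0.980), with Sp110 at rank 5. Pml was most like Mov10 (r = 0.932), an RNA helicase, Tcirg1 (0.906), a subunit of the vacuolar proton pump, and Gm12216 (0.905), with no other member closer than Sp100 at rank 74. Daxx was most like Dhx58 (r = 0.948), the RNA sensor LGP2, the purine nucleoside phosphorylase gene Pnp (0.945) and the actin regulator Cap1 (0.942). Sp100 stood at rank 171 for Daxx and Pml at rank 1340. These r include the differences between treatments and are a description, with no test.

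Genes of the interferon pathway were counted in the same comparisons, in which 11.5% (tretinoin), 14.1% (ICT) and 25.7% (Tretinoin+ICT) of all genes tested were higher than in PBS tumours. Of 15 interferon signalling genes, 6 were higher after tretinoin, 11 after ICT and 14 after Tretinoin+ICT, each against PBS, and none was lower. Their median log2 fold changes were 0.34, 0.45 and 0.58, beside 0.01, -0.02 and -0.01 over all genes. Irf1, an interferon-induced transcription factor, rose with log2 fold changes of 1.01 (edgeR adjusted p = 0.01), 1.02 (0.0127) and 1.86 (1.29e-06). Of 27 interferon-induced effectors, 5 were higher after tretinoin, 21 after ICT and 26 after Tretinoin+ICT. Gbp5 rose by 1.84 (edgeR adjusted p = 0.00739) with ICT and 2.55 (8.2e-06) with Tretinoin+ICT on the log2 scale. Against ICT alone 0 of 15 and 0 of 27 passed, beside 1.99% of all genes in either direction. The median log2 differences there were 0.20 and 0.31, beside -0.005 over all genes.

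The counts of nuclear body partners stand beside the 20.4%, 21.2% and 50.3% of all genes that passed in either direction after tretinoin, ICT and Tretinoin+ICT. Of 30 SUMO-pathway and nuclear body partners, 2 were higher and 3 lower after tretinoin, 2 and 3 after ICT, and 7 and 14 after Tretinoin+ICT, with a median log2 fold change of -0.11 in the last. After tretinoin Trim24, a bromodomain cofactor of retinoic acid receptors, rose by 0.43 (edgeR adjusted p = 1.62e-05) and Morc3, a PML-recruited ATPase, by 0.17 (0.0434). Sumo2, a SUMO modifier, fell by 0.21 (edgeR adjusted p = 0.00696) and Sae1, part of the SUMO-activating enzyme, fell by 0.18 (0.0191). After Tretinoin+ICT the retinoic acid receptor gene Rara rose by 0.53 (edgeR adjusted p = 2.24e-05) and the nuclear body exonuclease gene Isg20 by 0.46 (0.000232). The helicase gene Blm fell by 0.39 (edgeR adjusted p = 0.000323) and the SUMO protease gene Senp5 fell by 0.29 (0.0203).

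Of 11 measured H3.3 chaperone partners, which work with DAXX in chromatin, none was higher in any of the treatment comparisons with PBS, and 3, 2 and 5 were lower after tretinoin, ICT and Tretinoin+ICT, beside 20.4%, 21.2% and 50.3% of all genes passing in either direction. After Tretinoin+ICT, Cbx5 fell by 0.49 (edgeR adjusted p = 9.29e-05) and Cbx3 fell by 0.26 (0.000611), both heterochromatin protein 1 genes. Atrx, the partner of DAXX in H3.3 deposition, had log2 differences of 0.02, -0.02 and -0.05 in the same order (edgeR adjusted p = 0.876, 0.853 and 0.572). Of 22 bromodomain and PHD-finger readers, the class to which SP140 belongs by domain, 5 were higher and none lower after tretinoin, 4 and 1 after ICT, and 8 and 8 after Tretinoin+ICT, beside the same shares of all genes. Phf11a and Phf11b, PHD-finger genes, were among those higher in each. Phf11a rose by 1.11 (edgeR adjusted p = 4.66e-05), 0.43 (0.0499) and 1.34 (6.89e-07), and Phf11b by 0.99 (0.00163), 0.58 (0.0232) and 1.37 (1.31e-06).

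Leukocyte transcripts moved with the members in part. Ptprc had log2 differences from PBS of 0.14 after tretinoin (edgeR adjusted p = 0.562), 0.57 after ICT (0.0723) and 0.72 after Tretinoin+ICT (0.000656), and a difference of 0.59 between Tretinoin+ICT and tretinoin (0.0187). After tretinoin, where Pml, Sp110 and Sp140 rose, 0 of 4 T cell, 0 of 4 macrophage and monocyte, and 0 of 3 tested neutrophil markers passed, and 1 of 4 dendritic cell markers was higher. The median log2 differences of these markers were 0.37 (T cell), 0.30 (macrophage and monocyte), -0.25 (neutrophil) and 0.46 (dendritic cell), beside 0.01 over all genes. With ICT, 0 of 4 T cell, 4 of 4 macrophage and monocyte, 3 of 3 neutrophil and 2 of 4 dendritic cell markers were higher. With Tretinoin+ICT the counts were 0 of 4, 4 of 4, 3 of 3 and 3 of 4. Of all genes tested, 11.5%, 14.1% and 25.7% were higher in these 3 comparisons. The mesothelial markers also moved. Wt1 was higher by 1.12 (edgeR adjusted p = 0.0157), 1.40 (0.00443) and 2.39 (2.71e-05) on the log2 scale after tretinoin, ICT and Tretinoin+ICT, from low levels, and Pdpn had log2 differences of 0.00 (0.959), 0.22 (0.0278) and 0.27 (0.000193). The summed macrophage and monocyte markers were at 991 to 1690 CPM in PBS tumours, 1110 to 2050 with tretinoin, 1100 to 2530 with ICT and 1310 to 2290 with Tretinoin+ICT. The summed neutrophil markers, with Ly6g under 1 CPM in every tumour, were at 41.5 to 96.4, 49.1 to 155, 55.8 to 241 and 84.9 to 222 CPM, and the summed dendritic cell markers at 41.3 to 97.3, 55.7 to 172, 69.7 to 230.0 and 85.4 to 247 CPM. The part of these cells, or of Wt1- and Pdpn-expressing cells, in the values of the members was not tested. In responders the dendritic cell sum was 110.0 to 247 CPM and in non-responders 85.4 to 110.0 CPM. The macrophage and monocyte sum was 1570 to 2290 against 1310 to 1810 CPM, and the neutrophil sum 113 to 222 against 84.9 to 136 CPM. Between responders and non-responders 0 of 4, 0 of 4 and 0 of 3 of these markers passed, beside 0% of 14604 genes. Ptprc was higher in responders by 0.44 on the log2 scale (edgeR adjusted p = 0.184), beside the SP100 family values given above.

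Transcripts next to the SP100 family on chromosome 1 rose as well. After Tretinoin+ICT the log2 fold change against PBS was 1.15 (SE 0.186, edgeR adjusted p = 4.17e-05) for Gm16094, an antisense transcript that lies between the starts of Sp110 and Sp140. It was 0.77 (SE 0.132, edgeR adjusted p = 7.07e-05) for Gm17017, whose exons overlap those of Sp140 by 877 bp on the opposite strand. With 49 to 203 counts per tumour, Gm17017 was far below Sp140, but the counting mode for strand was not given, so reads of the 2 genes in that overlap cannot be told apart. Beyond Sp110, the pseudogenes Gm2427 and Gm7592 were higher by 0.88 (edgeR adjusted p = 9.66e-05) and 0.65 (8.49e-05). Beyond Sp100, A630001G21Rik rose by 0.24 (edgeR adjusted p = 0.00262), and the next protein-coding gene, Cab39, had a log2 difference of -0.02 (0.612). Near-identical copies of these genes can share reads.

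**Figure D4:**
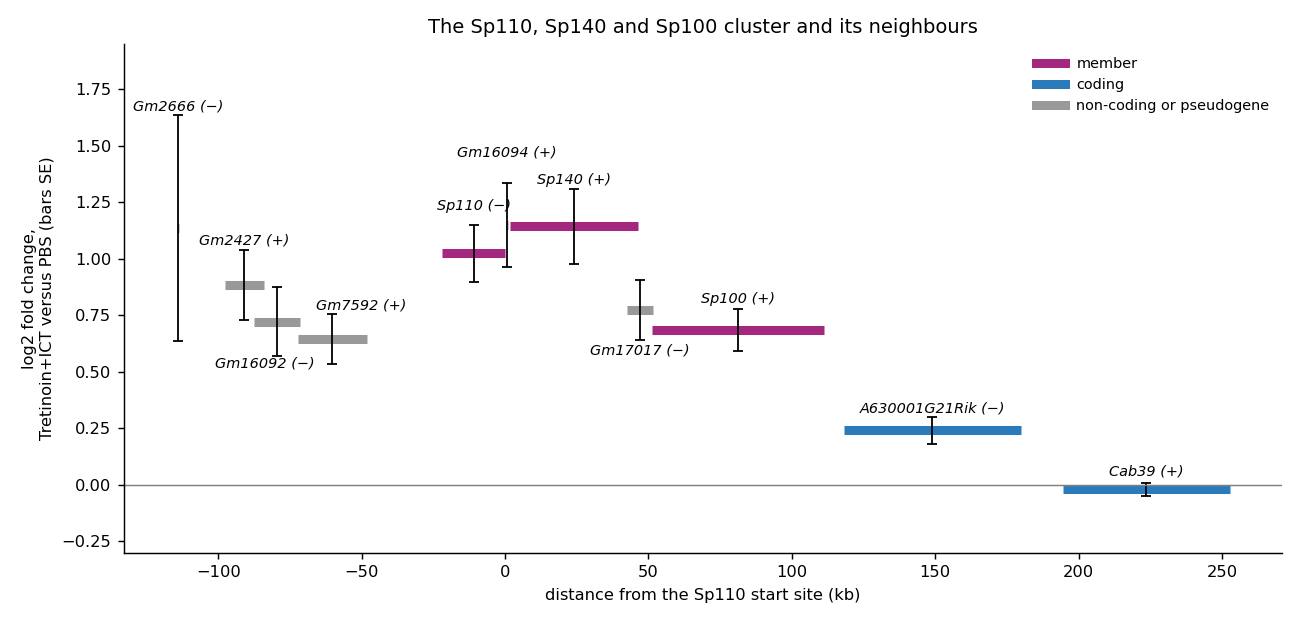
Log2 fold change of Tretinoin+ICT against PBS (y axis) for the genes at the Sp110, Sp140 and Sp100 locus, drawn to scale at their distance in kb from the Sp110 start (x axis), with the strand after each name and error bars of 1 SE. Sp110 (1.03), Sp140 (1.14) and Gm16094 (1.15) stand highest of the genes that passed the test, Gm2666 has the widest error (1.14, SE 0.499, edgeR adjusted p = 0.0646), and Cab39 lies at -0.02.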

How the data were processed

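Per the labels and the study's methods, the authors took RNA from 39 frozen AB1-HA tumours, sequenced it as 100-base single reads on an Illumina NovaSeq (bcl2fastq 2.20.0.422), aligned the reads to the mouse genome with HISAT2 2.0.4 and counted them per gene with SummariseOverlaps. They deposited raw counts per gene, with no normalisation and no coordinates. The strand mode was not given in the sources used here, and positions come from GENCODE M21 (GRCm38), to which 39495 gene identifiers matched without their version.

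Groups came from the treatment and response labels. Each comparison was fitted on its own tumours with edgeR 4.0.16 (R 4.3.3): filterByExpr, TMM normalisation, the robust quasi-likelihood test, and Benjamini-Hochberg adjustment over all genes tested, with a threshold of 0.05 and, where stated, a minimum of 1 for the absolute log2 fold change. The study used DESeq2, run here as an alternative (1.42.0). The interaction was fitted on all 39 tumours. Log2 CPM used a prior count of 2. Correlations had 100000 permutations and were adjusted over 20 pairs, some of which are not reported here. On simulated counts for tretinoin against PBS (14340 genes), edgeR recovered 125 of 200 genes changed by 0.5 on the log2 scale and 180 of 200 changed by 1, and for responders against non-responders (14604 genes) 50 and 142 of 200. In the same order edgeR made 4, 1, 1 and 8 false calls. DESeq2 recovered 134, 184, 86 and 154 of 200, with 15, 12, 19 and 23 false calls.

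The members, gene lists and tests were chosen with earlier results of these data known. Named beside the members are the 3 genes most like each, up to 2 genes per list and direction with the largest change among those passing, Irf1, Atrx, Ptprc and Cyp26b1, and the chromosome 1 neighbours. Of the list genes, Pias2, Senp2, Ubn1, Cabin1, Asf1a, Brd9, Baz2a, Phf1, Jak2, Stat2, Socs1, Isg15, Cyp26a1, Rarb, Adgre1, Dcn, Msln, Upk1b, Krt8 and Krt18 are not analysed here. Of 6 measured retinoid targets, 5 were higher after tretinoin and after Tretinoin+ICT, and 3 were higher and 1 lower after ICT, each against PBS. T cell, B cell, NK cell, endothelial and fibroblast markers after Tretinoin+ICT against PBS were higher for 0 of 4, 1 of 3, 2 of 2, 1 of 3 and 0 of 2 and lower for 1 endothelial marker.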

Additional observations from a re-analysis of the deposited data

Results flagged for a closer look

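Tretinoin+ICT replicate 9, a non-responder, had the lowest Pml level of its treatment group, 131 CPM against 162 to 187 CPM in the other 9 tumours, and stood as far from the other 3 non-responders (167, 169 and 173 CPM). A gap test at the 95% level (Dixon) was applied to 30 sets of tumours over the 5 genes, chance alone marks about 1 in 20 such sets, and these 2, which rest on the same tumour, were the ones marked. The same tumour was also lowest of its group for Sp100, Sp110, Sp140 and Daxx, with no gap of that size.

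For 3 genes named beside the members, the effect of tretinoin with ICT differed from its effect without ICT by the edgeR interaction test. The difference on the log2 scale was -0.46 for Trim24 (adjusted p = 0.00525), which had a tretinoin log2 fold change of 0.43 without ICT and -0.04 with it. It was -2.36 for Cyp26b1 (adjusted p = 5.87e-06), with 5.19 and 2.84, and -1.19 for Dhrs3, a retinal reductase gene (adjusted p = 3.37e-07), with 2.66 and 1.48. None of the 5 members passed this test.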

How the results depend on the processing

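Of 900 values of the 5 members under the alternatives, 899 kept their direction and 795 their side of the threshold, while 76 lost and 28 gained a call. The exception in direction was Sp110 in tretinoin against ICT, which turned from -0.12 to 0.0021 with title series 3 against 8. All 5 members passed in Tretinoin+ICT against PBS in every alternative run. In tretinoin against PBS the 3 members passing became 1 with no low-count filter and 0, 1, 0 and 1 in the 4 pairs of title series, and ranged from 1 to 4 with 1 tumour left out. In ICT against PBS the 4 became 0, 0, 0 and 1 in the pairs of series and 4 to 5 with 1 tumour left out. In Tretinoin+ICT against tretinoin the 3 became 1 with no filter, 1, 1, 0 and 0 in the pairs, and 1 to 4 with 1 tumour left out. The pairs compare 4 or 5 tumours with 5, so fewer tumours enter each fit. In Tretinoin+ICT against ICT the count of 0 became 1 (Pml) with DESeq2 and with all 39 tumours in 1 fit, and 0 to 1 with 1 tumour left out, and the 283 genes passing became 587 and 741. Between responders and non-responders the members passing became 2 with DESeq2 and 0 to 2 with 1 tumour left out, and the 0 genes passing became 1401 with DESeq2, 5 with no filter and 1 with all tumours in 1 fit. The 46 genes of the interaction became 84 with DESeq2 and 29 with no filter. Where not given, the cause was not tested. All 20 correlations passed with variance-stabilised values. With pooled values and without the 2 farthest tumours only r was computed, with no test. It ranged from 0.629 to 0.98 and from 0.561 to 0.952. Of 688 values of other named genes, 646 kept call and direction, 28 lost and 13 gained the call, and 1 reversed. Leaving out 1 tumour at a time was added for the comparisons of treatments after seeing the data. The last digit of the sample titles recurs in every group and series, and the labels do not explain it. Tumours with the same digit did not consistently deviate together from their group means (r across genes of -0.347 to 0.525, above 0.1 in 10 of 30 pairs of groups and digits). Tumours with unlike digits were not compared in this way, so whether the digit marks a shared condition was not tested. With that digit as a replicate block, a fit added after seeing the data, the members passing became 1 in tretinoin against PBS (Pml), 1 in Tretinoin+ICT against ICT (Pml) and 1 in tretinoin against ICT (Pml), and 4 in Tretinoin+ICT against tretinoin. Irf1 turned from -0.0094 to 0.094 in tretinoin against ICT, passing in neither fit. Each member had at least 795 counts in every tumour.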
